A study of Mus musculus with 24 samples.

Results

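The arrays carried 4449 probes to long intergenic noncoding RNAs (lincRNAs) among 56605 probes that were not controls. They were chosen as the non-control probes whose name starts with A_30_P and whose gene name is a genomic interval ending in _F or _R, for the forward or the reverse strand. Another 11 probes with names of that form carried no such interval and were left out. Male Erfe-/- mice gave RNA from 2 tissues, liver and marrow, either unbled (0 h) or 24 or 48 h after retro-orbital phlebotomy. Each time had 4 mice and each sample 1 single-colour array, so there were 24 arrays in 6 groups of 4. If that count of mice covers both tissues, the liver and marrow of a time came from the same mice. The labels do not say which marrow belongs to which liver, so the tissues were fitted without pairing. Fits with the replicate number as a block are given where they end or add a call of a named probe. All 6 groups carry the Erfe deletion, which removes erythroferrone, the hormone that erythroblasts release after blood loss to lower hepcidin in the liver. No wild-type sample was analysed here, so nothing below compares genotypes, and the 2 Erfe probes were well above background on 0 and on 1 of the 24 arrays. The question asked of these probes is which lincRNA intervals give signal in each tissue and which of them change after bleeding.

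LincRNAs are transcripts made largely by RNA polymerase II from stretches between annotated protein-coding genes, often spliced and polyadenylated, but without a recognised protein product. Many are present at low levels, many are found in few tissues, and those whose function is known act on chromatin, on transcription of nearby genes, on RNA processing or as decoys for proteins and small RNAs. In blood cell formation and in liver a small number have been tied to differentiation or metabolism, while most intervals of the kind on this array have a position and no assigned function.

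The 4449 probes fell in 3229 intervals on 20 chromosomes, with 174 probes on chromosome X and 0 on chromosome Y. Interval lengths ran from 62 to 538251 bases with a median of 10601. Probes to both strands were present for 832 intervals, and 316 interval and strand combinations held more than 1 probe. Each probe was 60 bases long. The scanner files give a position on the mouse assembly mm9 for 4358 of the probes, and all 4358 lie inside their interval on the strand that the name states. The word intergenic did not hold everywhere by the array's own positions: 491 probes had a probe to a named gene on the same strand inside their interval, 468 had one on the opposite strand, and 4133 had one within 100000 bases. The place of each probe within a gene model (exon, intron or UTR) was not analysed here. Nor was it checked whether a probe's sequence also matches coding sequence or another place in the genome.

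The sequences of the probes with the clearest difference between tissues are given first, 5′ to 3′ as spotted, because detection in 1 tissue alone is the pattern that most of the values below describe. In lower case throughout, 5 were above background on all 4 marrow arrays and on no liver array at 0 h:

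A_30_P01018721: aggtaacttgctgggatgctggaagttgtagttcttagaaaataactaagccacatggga
A_30_P01023554: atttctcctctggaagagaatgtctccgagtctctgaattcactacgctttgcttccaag
A_30_P01024278: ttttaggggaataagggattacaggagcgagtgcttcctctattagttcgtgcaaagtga
A_30_P01020118: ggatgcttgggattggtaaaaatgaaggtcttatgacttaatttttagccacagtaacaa
A_30_P01029577: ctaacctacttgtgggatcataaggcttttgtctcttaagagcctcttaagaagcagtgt

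The next 5 showed the reverse, above background on all 4 liver arrays and on no marrow array at 0 h:

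A_30_P01020675: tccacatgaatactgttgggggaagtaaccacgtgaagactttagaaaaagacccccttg
A_30_P01021396: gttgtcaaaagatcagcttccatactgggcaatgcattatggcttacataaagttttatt
A_30_P01033599: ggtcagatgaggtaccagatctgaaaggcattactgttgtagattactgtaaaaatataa
A_30_P01018953: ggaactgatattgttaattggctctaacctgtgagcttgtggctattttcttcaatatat
A_30_P01032840: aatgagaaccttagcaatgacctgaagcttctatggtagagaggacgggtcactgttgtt

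A probe was counted as detected in a group where all 4 of the group's arrays carried the scanner software's mark for a signal well above background. At 0 h, 1532 lincRNA probes (34.4%) were detected in liver and 1911 (43.0%) in marrow. Both shares lay below those of the 52156 other probes of the array, of which 48.6% were detected in liver and 56.2% in marrow. At 24 and 48 h, 1673 and 1438 lincRNA probes (37.6% and 32.3%) were detected in liver, against 51.2% and 48.2% of the other probes. In marrow 1936 and 1829 (43.5% and 41.1%) were detected, against 56.2% and 54.8%. On all 24 arrays, 1258 lincRNA probes (28.3%) were well above background, against 43.1% of the other probes. A further 787 (17.7%) were well above background on no array, against 14.8% of the others. No test was made between the lists.

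Detection moved with where on the slide an array lay. Of 4449 lincRNA probes, 2015 to 2327 were well above background on the 6 liver arrays in the upper row of a slide and 1596 to 1937 on the 6 in the lower row. In liver every array of the upper row thus lay above every array of the lower. In marrow the ranges were 2308 to 2476 and 2042 to 2275. Every group held 2 arrays of each row, so the row did not differ between groups, and its part in the detection counts was not tested beyond the values within each row given below.

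The probe sequence moved with detection too. Probes were put in 4 bins by their share of G and C, of unequal size (1201, 1966, 270 and 1012 probes). Detection in liver at 0 h was 24.4% in the lowest bin (15% to 40% GC) and 29.7% in the second. It was 43.0% in the third and 53.4% in the highest (51.7% to 88.3% GC). The marrow shares were 34.5%, 36.8%, 51.9% and 62.6%. The share above background on no array went the other way, from 24.1% in the lowest bin to 6.82% in the highest. The polyadenylation hexamer AATAAA, searched on both strands of the probe, was present as written in 178 lincRNA probes (4.00%) and in 10.3% of the other probes, and its complement in 2.76% and 3.94%. Among the probes on all 24 arrays 4.77% held the hexamer as written, and among those on no array 3.30%.

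In both tissues at 0 h, 1395 lincRNA probes (31.4%) were detected, and 1354 (30.4%) were above background on none of the 8 arrays. Detection on all 4 arrays of marrow and 0 of 4 of liver held for 192 probes (4.32%, against 4.84% of the other probes). The reverse held for 38 probes (0.854%, against 1.83% of the others). There were thus 5.05 marrow-alone probes for each liver-alone probe among the lincRNA probes and 2.64 among the others. The weakest level marked well above background differed between the tissues, as given below, and its part in these ratios was not tested. Median GC was 43.3% for the marrow-alone probes, 44.2% for the liver-alone probes and 45% for all members, and median interval lengths were 8.49, 12.4 and 10.6 kb. The marrow-alone probes came from 192 intervals and strands and the liver-alone probes from 35.

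Levels are given as the log2 intensity of the probe minus the log2 of the array's 75th percentile, so that 0 is the level of that percentile. Differences are on the same log2 scale, marrow minus liver, and positive values mean higher in marrow. They were tested with limma, a linear model with moderated variances, over the 33271 probes detected in at least 1 of the 2 groups, with Benjamini-Hochberg adjustment over all of them and a threshold of 0.05. At that threshold 79.9% of all probes differed between liver and marrow at 0 h, 41.5% higher in marrow and 38.3% in liver. Of the 2048 lincRNA probes tested, 1427 differed, a smaller share (69.7%) than among all probes, with 578 higher in marrow and 849 higher in liver. The median difference was -0.21 over the lincRNA probes tested and 0.06 over all probes.

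The split between the tissues depends on how arrays are scaled. The 75th percentile lay between 361 and 473 intensity units on liver arrays and between 715 and 955 on marrow arrays. Without scaling, 1273 lincRNA probes were higher in marrow and 251 in liver, with a median of 0.79 over lincRNA probes and 1.06 over all probes. After normexp background correction the counts were 317 and 1320, with medians of -0.46 and -0.21. In each of these settings the median of the lincRNA probes lay below that of all probes. The normexp setting adds the same constant to every intensity before scaling, which shrinks differences at dim levels. Against the higher marrow percentile that constant stands lower, which places dim probes lower in marrow. How much of the normexp counts this makes was not tested. The groups did not overlap for 1277 lincRNA probes, 521 higher in marrow and 756 in liver, against 76.1% of all probes (39.6% and 36.5%).

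Among the 192 probes detected in marrow alone, 174 were called higher in marrow, and 90 of these by more than 2 log2 units, which is 4-fold. All 38 liver-alone probes were called higher in liver, 35 of them by more than 2. Their median differences were 1.94 and -4.12. Since a probe enters these classes through its signal, the numbers describe the classes and test nothing. The same holds for the adjusted p-values of probes of these classes named below, which were picked by the smallest p. Their SEs also take in values below background in the dimmer tissue. Of the 1395 probes detected in both tissues, 279 were called higher in marrow and 702 higher in liver, with a median of -0.41. Of these, 50 and 81 differed by more than 2. Counts within these 3 classes are not given for the other probes, so no lean particular to lincRNA probes is read from them.

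For a probe below background in a tissue the level there is only a bound. Folds are therefore written "at least N-fold", with the brighter group's mean set against a floor in the dimmer group. On each array the floor is the weakest signal that the scanner software marked well above background there, or the probe's own value if that is larger, and the floors are averaged over arrays. At 0 h the floors lay between -5.38 and -5.02 on marrow arrays and between -4.89 and -3.96 on liver arrays. A dim probe could thus be marked at a lower scaled level in marrow than in liver. What this adds to the excess of marrow-alone probes was not tested. The bounds on folds hold for the scaled intensities described here. With normexp correction, which lifts dim signals, the fitted differences of the 10 probes printed above kept their sign and passed the test but ranged from 0.98 to 5.06 for the marrow-alone probes and from -4.49 to -2.45 for the liver-alone probes.

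Probe A_30_P01024278, in chr12:32781477-32808567 (mm9) on the reverse strand, had levels of 2.18, 2.34, 2.44 and 2.71 in marrow at 0 h and 4 values between -6.73 and -5.59, all below background, in liver. It was at least 121-fold higher in marrow (fitted difference 8.56 ± 0.24 SE, limma adjusted p = 7.7e-09). Its interval also holds 2 probes to 5430401H09Rik, a gene annotated as an lncRNA on the same strand, which were likewise above background on 0 of 4 liver and 4 of 4 marrow arrays and at least 36.7-fold and 31.7-fold higher in marrow (adjusted p = 1.0e-08 and 6.1e-09, limma). The next gene probe, 52.2 kb away on the same strand, was to Pik3cg, which encodes the catalytic subunit of a phosphoinositide kinase of leukocytes, and it was higher in marrow by a fitted 5.96, with 1 of 4 liver arrays above background. At 24 and 48 h the lincRNA probe stayed at means of 2.75 and 3.06 in marrow and was above background on none of the 8 later liver arrays.

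Probe A_30_P01018721, in chr3:95502970-95503399 on the reverse strand, lay at 1.67, 1.92, 1.74 and 1.75 in marrow and between -6.08 and -5.53 in liver at 0 h. The difference was at least 77.0-fold (7.54 ± 0.13 SE, adjusted p = 5.1e-10, limma). Its neighbours went the other way: probes to Adamtsl4 and to Ecm1, an extracellular matrix protein, both on the same strand at 22.4 and 34.7 kb, were lower in marrow by fitted differences of -1.35 and -3.84. Both later liver groups held 2 arrays above background for this lincRNA probe, at levels from -4.32 to -3.43.

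A_30_P01023554, in chr17:34018371-34019394 on the reverse strand, had levels of 2.36, 2.15, 2.33 and 2.19 in marrow and from -5.30 to -4.64 in liver. All 4 marrow values lay far above the 4 liver values, at least 105-fold apart (7.17 ± 0.15 SE, adjusted p = 1.4e-09, limma). A probe to Kifc1, a kinesin of the mitotic spindle, lay 1.4 kb from the interval on the same strand. It was itself detected in marrow alone, at least 3.48-fold higher there. The lincRNA probe was above background on 2 of 4 liver arrays at 24 h and on 1 of 4 at 48 h.

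A_30_P01020118, in chr4:128727332-128735227 on the forward strand, lay between -0.36 and 0.09 on the marrow arrays and between -7.11 and -6.23 on the liver arrays, at least 21.5-fold lower. The probe to the reverse strand of the same interval, A_30_P01026667, was above background on all 24 arrays and differed by -0.44 (adjusted p = 0.023), slightly higher in liver. Named probes to 1700086P04Rik, on the opposite strand inside the interval, were below background on all 4 liver arrays at 0 h and above it on at most 1 marrow array. Among them, A_52_P132554 was above background on all 4 marrow arrays at 24 and at 48 h. It entered the fit only through these later times, so its fitted sizes rest partly on signal below background. Its fitted marrow changes were 1.12 on the first day (adjusted p = 0.027, limma) and 1.35 over both days (adjusted p = 0.0094). Without the marrow array described below, these changes were 1.14 (adjusted p = 0.065, no longer called) and 1.35 (adjusted p = 0.014). The lincRNA probe itself gave -0.29 and 0.03 and did not pass. A_30_P01029577, in chr1:88187397-88187862 on the reverse strand, lay between -2.61 and -2.17 in marrow and between -6.72 and -6.28 in liver. It was at least 4.40-fold higher in marrow. Its neighbour Armc9, 13.2 kb away on the opposite strand, was higher in marrow by 0.97 (adjusted p = 0.0081).

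In liver, 2 of the 5 named intervals lie beside each other. Probe A_30_P01018953, in chr16:23543837-23560153 on the forward strand, had levels of 1.16, 1.03, 0.86 and 0.90 in liver and from -7.50 to -6.56 in marrow at 0 h, at least 73.5-fold lower in marrow (-8.00 ± 0.19 SE, adjusted p = 2.7e-09, limma). The other probe of this interval and strand, A_30_P01030265, was detected in liver alone too and at least 5.10-fold lower in marrow. Probe A_30_P01020675, in chr16:23534663-23535172, begins the same stretch, 8.66 kb before it on the same strand. Its liver levels were -0.78, -0.94, -0.95 and -1.09 and its marrow levels from -7.53 to -7.02, at least 19.3-fold lower, and a further probe of its interval, A_30_P01028355, detected in liver alone, was at least 22.5-fold lower in marrow. The nearest gene probe before both intervals, 44.2 and 53.4 kb away on the opposite strand, was to Masp1, a serine protease of the lectin pathway of complement, and was detected in liver alone, at least 125-fold lower in marrow. The nearest one after them, to Rtp4, differed by -0.77. Fitted changes of both lincRNA probes at 24 and 48 h in liver lay between -0.05 and 0.06.

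A_30_P01021396, in chr16:86770170-86874921 on the reverse strand, lay between -1.58 and -1.03 in liver and between -7.71 and -7.36 in marrow, at least 14.7-fold lower (-6.21 ± 0.14 SE, adjusted p = 2.6e-09, limma). The second probe of its interval, A_30_P01028418, was detected in liver alone and at least 65.1-fold lower in marrow. A probe to Gm32461, an lncRNA on the same strand inside the interval, gave a fitted -7.30 with 1 of 4 marrow arrays above background. All 3 probes were above background on every liver array at 0 h.

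A_30_P01033599, in chr1:138570107-138632310 on the forward strand, lay between -1.58 and -1.15 in liver and between -7.65 and -7.24 in marrow, at least 13.5-fold lower. Its 62.2 kb interval holds probes to 2 lncRNA genes on the same strand that differed in opposite directions, Platr22 at -3.53, with 1 of 4 marrow arrays above background, and Gm19705 at 1.28. The probe to the reverse strand, A_30_P01023528, gave -0.03. A_30_P01032840, in chr14:118774481-118873242 on the reverse strand, lay between -1.68 and -1.35 in liver and between -7.24 and -6.13 in marrow, at least 13.4-fold lower. Abcc4, an efflux transporter 8.9 kb away on the same strand, was higher in marrow by 3.04.

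One marrow array touched these values. On marrow at 24 h, replicate 2, the 10 hepatocyte markers (Alb, Apoa1, Apoa2, Ttr, Ahsg, Fgb, Cyp2e1, Serpina1c, Apoc3 and Fabp1) stood at a median of 14.0% of their liver level at 0 h, against 0.00096% to 0.0282% on the other 11 marrow arrays. On that array 22 of the 38 liver-alone lincRNA probes were above background, against 1 to 7 on each of the other 7 marrow arrays at 24 and 48 h. A_30_P01018953 read -3.05 there and -7.57 to -5.37 on the other marrow arrays, and A_30_P01020518 (below) read 0.33 against -5.10 to -3.46. The comparison at 0 h does not use this array, and calls that do use it are also given without it. On each liver array at 24 and 48 h, 6 to 64 of the 192 marrow-alone probes were above background. The class was chosen for no such signal in liver at 0 h, so later counts could only match or exceed that. The counts were larger where the floor of the array was lower, from 6 at a floor of -4.10 to 64 at -5.26. What else they hold was not tested. On the other 3 marrow arrays at 24 h, 1986 lincRNA probes were all above background, and over the 23 other arrays of the study 1258 were above background on every one and 811 on none. Summed levels of 6 granulocyte genes, relative to the 75th percentile, were 1292 to 1888 on marrow arrays and 2.02 to 13.9 on liver arrays at 0 h, and those of 6 erythroid genes 764 to 961 and 179 to 216. In RNA from whole tissue, fewer cells of a type and less RNA per cell cannot be told apart.

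Among probes detected on all 8 arrays at 0 h, a difference is measured on both sides. The largest toward liver was that of A_30_P01020518, in chr9:78104935-78116974 on the forward strand. Its liver levels were 4.23, 4.35, 4.11 and 4.25 and its marrow levels -4.54, -4.51, -4.49 and -4.50, a 429-fold difference (-8.74 ± 0.08 SE, adjusted p = 5.4e-11, limma). The arrays of each tissue lay within 0.3 of each other. The nearest gene probes on either side, on the same strand, were to Gsta4, a glutathione S-transferase, and to Gm10639. Both were also higher in liver, by -4.17 and -6.18. Whether A_30_P01020518 reads a transcript of a protein-coding gene in this stretch was not tested.

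A_30_P01022813, in chr10:39666719-39679959, was 130-fold higher in liver (means 2.41 ± 0.08 and -4.62 ± 0.25, SD, n = 4 each), and the probes to its neighbours Mfsd4b2 and Mfsd4b5 were above background on at most 1 of the 8 arrays. A_30_P01032682, in chr11:117792051-117811334, was 53.9-fold higher in liver (3.20 ± 0.09 and -2.55 ± 0.13), while Socs3, an inhibitor of cytokine signalling 16.1 kb away on the same strand, did not pass the test (-0.12, adjusted p = 0.77). A_30_P01027122, in chr1:193875525-193978800, lay at 8.87 ± 0.18 in liver and 3.66 ± 0.04 in marrow, a 37.0-fold difference. Whether its sequence also matches coding sequence elsewhere was not tested. Its interval holds 3 probes to Rcor3, a transcriptional corepressor on the same strand, which differed by 0.33, 0.15 and -0.38, and a second lincRNA probe of the same interval and strand, A_30_P01030147, was above background on all 8 arrays at 0 h and gave 0.05, so the difference between tissues was not shared there. A_30_P01019026, in chr17:26911397-26917047, was 32.8-fold higher in liver (0.86 ± 0.30 and -4.18 ± 0.05), although the 5 other probes of its interval and strand were each above background on 0 or 1 of the 4 liver arrays at 0 h. The probe to the opposite strand, A_30_P01027115, was above background on all 8 arrays and gave -0.84.

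Toward marrow, A_30_P01019010 differed most, with levels of 2.93 to 3.29 in marrow and -3.52 to -3.00 in liver, an 81.0-fold difference (6.34 ± 0.13 SE, adjusted p = 1.5e-09, limma). It lies in chr11:96111499-96126224 on the reverse strand, 10.2 kb from a probe to Hoxb9, a homeobox transcription factor, which was above background on no array at 0 h. Its sequence is shown with that of A_30_P01020518 because they hold the largest differences measured on both sides:

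A_30_P01019010: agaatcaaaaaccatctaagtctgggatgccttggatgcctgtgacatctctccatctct
A_30_P01020518: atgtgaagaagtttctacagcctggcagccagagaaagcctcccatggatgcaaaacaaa

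The probe to the forward strand of the A_30_P01019010 interval, A_30_P01030699, was detected everywhere and differed the other way, by -0.91 (adjusted p = 0.0012). A_30_P01019123, in chr17:95150800-95180650, was 50.2-fold higher in marrow (2.44 ± 0.04 and -3.21 ± 0.20, SD, n = 4), and 2700099C18Rik, a transcribed pseudogene on the same strand inside the interval, was detected in marrow alone and at least 16.8-fold higher there. The second lincRNA probe there, A_30_P01018023, was likewise detected in marrow alone, at least 3.49-fold higher. A_30_P01018656, in chr17:22420025-22457650, was 25.2-fold higher in marrow (3.56 ± 0.37 and -1.10 ± 0.25), and 2 probes to its opposite strand, A_30_P01030119 and A_30_P01029664, gave 0.20 and 0.24 and did not pass the test. A_30_P01032750, in chr5:92556322-92558910, and A_30_P01018246, in chr1:93812836-93816128, were 23.3-fold and 21.2-fold higher in marrow.

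Tissue differences of lincRNA probes were also set beside those of named gene probes in or near their intervals. Over 193 pairs of a lincRNA probe and a gene probe inside its interval on the same strand, both tested, Pearson's r of the differences was 0.71 and Spearman's rho 0.61. Where both were called, 93 of 110 had the same sign (84.5%). On the opposite strand r was 0.33 over 161 pairs, with the same sign in 72.3% of the pairs called. Outside the interval r was 0.33 over 479 pairs up to 10000 bases away and 0.19 over 831 pairs from there to 100000 bases. These correlations run across probes, several of which share a gene probe (154 distinct gene probes in the 193 pairs), and all come from the same 8 arrays, so they describe the pairs and carry no p-value. The same-strand pairs include A_30_P01022383 and a Tusc3 probe that share a run of sequence. How many other pairs share sequence, and what they add to r, was not tested.

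The nearest gene probes of the 2 single-tissue classes also leaned to the class's own tissue. The nearest gene probe was tested for 128 of the marrow-alone probes and called higher in marrow for 86 of them (67.2%), and it was tested for 26 of the liver-alone probes and called higher in liver for 16 (61.5%). For the probes detected in both tissues the shares were 41.7% and 33.9%. Several lincRNA probes share a nearest gene probe. Counted once each, 79 of 118 gene probes beside the marrow-alone class were higher in marrow (66.9%) and 12 of 22 beside the liver-alone class higher in liver (54.5%), against 43.6% and 34.3% of 598 beside the probes detected in both. Of the 192 marrow-alone probes, 39 lay within 100000 bases of another one in a different interval, and of the 38 liver-alone probes 4 did, in 1 pair of intervals, the pair beside Masp1. How far those shares depend on a few gene-rich regions was not tested.

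The 2 strands of an interval often differed. Of the 832 intervals with probes to both, at 0 h both strands were detected in liver for 178, 1 strand for 348 and neither for 306, and in marrow for 245, 360 and 227. In 271 intervals both strands had a tested tissue difference. Both were called in 146, and 38 of these had opposite signs, with r = 0.27 over the 271. Where an interval and strand held more than 1 tested probe, the probes agreed more: over 114 such combinations the median span of the tissue differences was 0.72, all probes were called the same way in 53, and 9 held calls of opposite sign.

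Looked up after their values were seen, 8 pairs of probes are exact complements over all 60 bases, so that they have the same GC content and differ only in the strand they read. In the pair shown here, in chr19:61177675-61219875, the forward-strand probe was well above background on 0 of 24 arrays and the reverse-strand probe on all 24, the whole 60 bases being in capitals because they are shared:

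A_30_P01023284: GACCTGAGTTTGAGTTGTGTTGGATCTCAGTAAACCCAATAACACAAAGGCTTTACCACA
A_30_P01032512: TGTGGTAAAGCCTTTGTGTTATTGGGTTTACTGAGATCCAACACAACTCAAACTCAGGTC

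A second pair, A_30_P01024366 and A_30_P01030079 on chromosome 8, was above background on 0 and 11 arrays, 10 of the 11 from marrow. In a further pair, A_30_P01023003 and A_30_P01027675 on chromosome 3, the counts were 14 and 24. Both probes of the other 5 pairs were above background on 7 arrays or fewer. Over the 192 pairs of lincRNA probes that are complementary over at least 20 bases, both were detected in liver at 0 h for 42, 1 for 55 and neither for 95.

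After phlebotomy, few lincRNA probes changed in marrow. At 24 h against 0 h, 1 of 2051 tested passed the threshold, against 0.829% of all 32225 probes tested, and 172 had an unadjusted p under 0.05, which held for 11.7% of all probes. At 48 h against 0 h, 6 passed, all higher, against 1.21% of all probes (1.06% higher and 0.146% lower), and 144 had an unadjusted p under 0.05, against 15.4% of all probes. The groups did not overlap for 117 lincRNA probes at 24 h, 50 higher and 67 lower, against 7.96% of all probes (4.12% and 3.84%). At 48 h they did not overlap for 97, 70 higher and 27 lower, against 12.3% (8.39% and 3.94%). Between 24 and 48 h, limma called 0 lincRNA probes and 0.0031% of all probes, with 160 lincRNA probes at an unadjusted p under 0.05 (7.89% of all probes) and 78 without overlap, 65 higher and 13 lower (3.73%, 2.92% and 0.81% of all probes). The median change over the lincRNA probes tested at 48 h was 0.01, as over all probes. Both comparisons against 0 h share the same 4 arrays at 0 h.

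Without the marrow array at 24 h that carries hepatocyte transcripts, limma called 1 of 2075 lincRNA probes at 24 h, against 0.494% of all probes, 10 at 48 h, against 1.67%, and 0 between the times, against 0.00309%. An unadjusted p under 0.05 was then reached by 129, 167 and 129 lincRNA probes and by 11.1%, 17.4% and 6.28% of all probes. The groups at 0 and 24 h then did not overlap for 164 lincRNA probes, 79 higher and 85 lower, against 13.2% of all probes (8.43% and 4.78%). Those at 24 and 48 h did not overlap for 115, 83 higher and 32 lower, against 5.83% (3.57% and 2.27%). With 3 arrays at 24 h in place of 4, groups part more easily, so these counts are to be read against the shares of all probes.

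A_30_P01027731, in chr4:128207615-128242898 on the forward strand, was the probe that fell at 24 h. It lay at -4.73, -3.98, -3.84 and -4.70 at 0 h, at -5.90, -6.21, -7.87 and -6.93 at 24 h and at -4.60, -5.13, -3.77 and -4.36 at 48 h. It was above background on all arrays at 0 and 48 h and on none at 24 h, and the groups did not overlap. The fall was at least 2.11-fold (-2.41 ± 0.42 SE, adjusted p = 0.022, limma), and at 48 h the change was -0.15 (adjusted p = 0.90). The second probe of its interval and strand, A_30_P01019036, gave -0.24 at 24 h (adjusted p = 0.53) with all 12 marrow arrays above background. Probes to Csmd2, a large membrane protein gene on the same strand, flank the interval at about 2 kb on each side and were below background in both tissues at 0 h. The call was lost without marrow replicate 2 or 3 at 0 h, after which 0 lincRNA probes passed, and without replicate 4 at 24 h. The count over lincRNA probes was 2 or 3 without marrow replicate 1 at 0 h, replicate 1 or 3 at 24 h or replicate 1, 2 or 3 at 48 h. It was lost too with the replicate number as a block (adjusted p = 0.086). The call held without replicate 2 at 24 h (-2.59, adjusted p = 0.038). With normexp correction the change was -0.65 and in the authors' processed values -0.68 (adjusted p = 0.048 and 0.046).

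The probe with the smallest p at 48 h was A_30_P01029130, in chr13:53100475-53113850 on the reverse strand. It lay at -4.76, -4.62, -4.82 and -4.65 at 0 h, at -4.36, -4.02, -4.38 and -4.34 at 24 h and at -4.16, -4.07, -3.86 and -4.07 at 48 h. It rose 1.60-fold by 48 h (0.67 ± 0.10 SE, adjusted p = 0.010, limma). All values at 48 h lay above all at 0 h, and those at 24 h did too (0.44, adjusted p = 0.083, and 0.36 with 0.13 without the array that carries hepatocyte transcripts). It was above background on all 12 marrow arrays and on no liver array. The nearest gene probe on the same strand, 37.8 kb before it, was to Nfil3, a basic leucine zipper transcription factor, at -0.32 (adjusted p = 0.52). This call held when any single array was left out and with the slide or the replicate number as a block (adjusted p = 0.044 and 0.038). It was lost with normexp correction, at 0.26 (adjusted p = 0.13), and in the authors' processed values, at 0.36 (adjusted p = 0.094). The sequences of this probe and of the one that fell are those on which the marrow changes rest most:

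A_30_P01027731: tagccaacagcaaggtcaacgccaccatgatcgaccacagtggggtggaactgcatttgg
A_30_P01029130: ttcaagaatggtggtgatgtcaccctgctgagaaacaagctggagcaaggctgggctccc

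A_30_P01021461, in chr2:119697845-119719245 on the forward strand, rose most, 2.27-fold by 48 h (1.18 ± 0.23 SE, adjusted p = 0.034, limma). Its marrow levels were -3.31, -3.28, -3.44 and -3.45 at 0 h and -2.43, -2.44, -1.31 and -2.57 at 48 h, so 1 array (replicate 3) stood above the other 3, all of which still lay above every array at 0 h. At 24 h the levels ran from -2.54 to -2.22 (0.98, adjusted p = 0.083). In liver the same probe lay higher at 0 h, by a tissue difference of -3.02, and gave -0.03 at 48 h (adjusted p = 1.0). Its marrow call was lost with the slide or the replicate number as a block (adjusted p = 0.096 and 0.074) and held in 4 of the 12 fits that leave out 1 array. A_30_P01019540, in a 207.7 kb interval of chromosome 4 (chr4:124127144-124334840, reverse strand), rose 1.91-fold (0.93 ± 0.19 SE, adjusted p = 0.039). Its levels were -4.33, -5.01, -4.64 and -4.20 at 0 h, with the second below background, and -3.48, -3.47, -3.99 and -3.53 at 48 h. This call was lost with the slide as a block (adjusted p = 0.11) and held in 4 of the 12 fits.

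The remaining 3 rises were shared with gene probes on the same strand. A_30_P01031714, in chr1:82895400-82897576 on the forward strand, went from 0.82, 0.83, 1.16 and 0.99 at 0 h to 1.53, 1.55, 1.45 and 1.33 at 48 h (0.52 ± 0.09 SE, adjusted p = 0.025, limma). The call was lost with the slide or the replicate number as a block (adjusted p = 0.081 and 0.092) and held in 8 of the 12 fits. A probe to Agfg1, a protein with an Arf GTPase-activating domain, lies 3.4 kb before the interval on the same strand and rose by 0.66 (adjusted p = 0.0078) on the first day and stood 0.70 above the unbled level at 48 h (adjusted p = 0.0052). A_30_P01017723, in chr17:35080914-35090009 on the reverse strand, went from -1.34, -1.44, -1.51 and -1.29 to -0.74, -0.69, -1.10 and -0.71 (0.58 ± 0.11 SE, adjusted p = 0.024), a call that held with either block and in 6 of the 12 fits. Its interval holds the lncRNA gene 1110038B12Rik on the same strand, whose probe rose by 0.39 (adjusted p = 0.043), while a second lincRNA probe there, A_30_P01022237, gave 0.46 (adjusted p = 0.079).

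A_30_P01022383, the smallest rise (0.35 ± 0.07 SE, adjusted p = 0.039, limma), fell outside the naming rule and was named after its values were seen. Its levels were -0.14, -0.03, -0.03 and -0.06 at 0 h and 0.25, 0.29, 0.35 and 0.26 at 48 h. It lies inside Tusc3, which encodes a subunit of the oligosaccharyltransferase complex, shares a run of sequence with a Tusc3 probe, and that probe and another to Tusc3 rose by 0.42 and 0.36 (adjusted p = 0.042 and 0.045). Another lincRNA probe of the same interval and strand, A_30_P01023300, gave -0.14 (adjusted p = 0.71). The call of A_30_P01022383 was lost with the slide or the replicate number as a block (adjusted p = 0.12 and 0.11) and held in 2 of the 12 fits. Without the marrow array at 24 h that carries hepatocyte transcripts, the probes to Agfg1 (adjusted p = 0.012 at 24 h and 0.0063 at 48 h), 1110038B12Rik (0.031 at 48 h) and Tusc3 (0.032 and 0.026 at 48 h) passed as before.

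The count of 6 at 48 h depended on single arrays. It was 1 without marrow replicate 1 or 2 at 0 h or replicate 2 at 48 h, 2 without replicate 3 at 0 h or replicate 1 at 48 h, 4 without replicate 1 or 4 at 24 h or replicate 4 at 48 h, 9 without replicate 3 at 48 h, and 10 without the array at 24 h that carries hepatocyte transcripts. With the replicate number as a block it was 4. Within a single row of the slide, with 2 arrays per group, none of the 7 named probes passed in marrow, with adjusted p from 0.24 to 0.69, and all kept their direction. Summed erythroid markers in marrow lay at 764 to 961 at 0 h, 782 to 860 at 24 h and 886 to 1058 at 48 h, and 6 B cell markers at 38.8 to 63.9, 26.1 to 40.3 and 26.9 to 50.6. The 6 genes of these lists were above background on every marrow array. Lower at both later times, without overlap, were 3 T cell markers (5.84 to 6.64, then 3.44 to 5.34 and 4.67 to 5.16). So were 4 Kupffer and macrophage markers (14.9 to 18.5, then 10.5 to 13.9 and 9.26 to 13.4), not all above background on every array. Granulocyte, platelet lineage and endothelial sums overlapped between times. The part of these lists in the changes was not tested.

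At 24 h in marrow the next smallest p-values belonged to 2 probes that did not pass. A_30_P01022296, in chr8:26869173-26869823, was below background on all 4 arrays at 0 h (-5.74 to -5.11) and above it on 3 of 4 at 24 h (-4.99 to -4.28), a fitted change of 0.90 (adjusted p = 0.056, limma), and at least 1.57-fold by the bound. Without the array that carries hepatocyte transcripts it was above background on 2 of 3 and gave 0.81 (adjusted p = 0.12). With the replicate number as a block the probe passed (adjusted p = 0.018, limma). Its neighbours Ddhd2 and Bag4, on the same strand at 6.5 and 6.3 kb, gave -0.04 and -0.07. A_30_P01030356, in chr19:46419916-46421753, gave 0.42 (adjusted p = 0.066), with levels from -3.43 to -2.98 at 0 h and from -2.89 to -2.78 at 24 h. Without that array its adjusted p was 0.12.

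In liver, limma called 0 of 1718 lincRNA probes at 24 h, at 48 h or between them, as it called 0.0% of all 28796 probes tested. An unadjusted p under 0.05 was reached by 149, 88 and 88 lincRNA probes, and by 10.5%, 5.95% and 7.7% of all probes. The groups did not overlap for 78 lincRNA probes at 24 h, 22 higher and 56 lower, against 5.36% of all probes (2.45% and 2.91%). At 48 h they did not overlap for 46, 16 higher and 30 lower (4.02%, 1.84% and 2.18% of all probes), and between 24 and 48 h for 41, 21 higher and 20 lower (3.81%, 1.75% and 2.06%).

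The 2 probes with the smallest p at 24 h in liver, A_30_P01025234 on chromosome 5 and A_30_P01026835 on chromosome 14, are not independent. They share a run of 51 bases, printed in capitals, and were looked up for it after their values were seen:

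A_30_P01025234: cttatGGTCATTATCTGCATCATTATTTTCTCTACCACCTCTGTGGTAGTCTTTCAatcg
A_30_P01026835: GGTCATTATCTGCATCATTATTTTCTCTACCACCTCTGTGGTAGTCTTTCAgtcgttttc

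Their levels moved together. A_30_P01025234 lay at 4.12, 3.64, 3.95 and 3.74 at 0 h and at 4.37, 4.52, 4.52 and 4.41 at 24 h, and A_30_P01026835 at 4.23, 3.73, 4.08 and 3.91 and at 4.44, 4.57, 4.58 and 4.55. Changes were 0.59 ± 0.10 SE and 0.55 ± 0.10 SE, both at an adjusted p of 0.29 (limma). Other probes on the same strands of the 2 intervals, A_30_P01031757, A_30_P01027478 and A_30_P01026296, gave 0.50, 0.49 and 0.52, and probes to the opposite strands gave 0.04 and -0.01. At 48 h the smallest p in liver was that of A_30_P01017625, in chr7:111526943-111545093 between Trim30b and Trim30a, which lay at -0.46, -0.13, 0.05 and -0.21 at 0 h and at -0.98, -1.61, -1.62 and -1.81 at 48 h. The groups did not overlap, and the change of -1.32 ± 0.21 SE had an adjusted p of 0.31. It passed without liver replicate 1 at 48 h (adjusted p = 0.018), when the count in liver became 1. A_30_P01031052 and A_30_P01027439 followed with -0.74 (adjusted p = 0.38) and -0.32 (adjusted p = 0.59).

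Whether a change differed between the tissues was tested with an interaction term fitted to the 24 arrays together, for the 1567 lincRNA probes detected in some group of each tissue. At 24 h, 3 passed (0.447% of all 26596 probes), and at 48 h 1 did (0.583%), with 79 and 91 lincRNA probes at an unadjusted p under 0.05 (11.9% and 12% of all probes). For A_30_P01022296 the marrow change of 0.90 stood against a liver change of -0.51, a difference of 1.41 ± 0.29 SE (adjusted p = 0.035, limma), its liver levels being -3.67 to -3.51 at 0 h and -4.66 to -3.52 at 24 h. Since its marrow level at 0 h lay below background on all 4 arrays, the fitted size rests partly on signal that gives only a bound. For A_30_P01029310, in chr7:129299426-129299916 between probes to Dctn5, a dynactin subunit, and Plk1, a mitotic kinase, a marrow change of -0.25 stood against a liver change of 0.93, a difference of -1.18 (adjusted p = 0.042). It was above background on only 2 of 4 liver arrays at 0 h.

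For A_30_P01031714 the marrow change of 0.42 stood against -0.13 in liver, a difference of 0.55 (adjusted p = 0.045). At 48 h A_30_P01028170, on chromosome X in chrX:148819227-148844227, gave 0.32 in marrow and -0.46 in liver, a difference of 0.77 (adjusted p = 0.032). In none of these 4 did either tissue's own change pass at that time. Without the marrow array that carries hepatocyte transcripts, A_30_P01028170 still passed (adjusted p = 0.033) and the other 3 did not (adjusted p = 0.071 each), so the count over both times went from 4 to 1. With the replicate number as a block, A_30_P01022296 passed (adjusted p = 0.045) and A_30_P01029310, A_30_P01031714 and A_30_P01028170 did not (0.053, 0.067 and 0.054). With normexp correction none of the 4 passed (adjusted p from 0.064 to 0.16).

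At the other end, 3 probes above background on all 24 arrays were named for the smallest difference between tissues at 0 h. A_30_P01023938, in chr17:17431406-17456593, lay at -2.38 ± 0.16 in liver and -2.38 ± 0.12 in marrow (SD, n = 4), and the 95% interval of the difference ran from -0.24 to 0.25. The intervals were -0.34 to 0.34 for A_30_P01023979, for which 1 liver spot marked as an outlier was left out (n = 3), and -0.47 to 0.48 for A_30_P01022736. Their changes after phlebotomy lay between -0.32 and 0.29 in both tissues and did not pass. Without scaling between arrays these differences were at most 1.01 and all 3 were called, and with normexp correction they were -0.26 to -0.19 and A_30_P01023938 was called (adjusted p = 0.013, limma), so the equality is one of levels relative to the 75th percentile.

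LncRNAs with established gene names were counted beside the intervals. The list of 40 held Ptprv, which the RefSeq table gives as a transcribed pseudogene, so it is left out of the counts here. Of the other 39, 35 had a probe, each gene being read from its brightest probe, and 22 were detected in both tissues at 0 h. For 5 (Hotair, Mir155hg, Ftx, Tsix and Rmst) no probe was above background on any array at 0 h, and for Mir155hg and Rmst on none of the 24. Fendrr was detected in liver alone, at least 46.3-fold lower in marrow. Of 26 tested between tissues, 13 were higher in marrow and 10 in liver. Mir142hg, the host of a microRNA of blood cells, was higher in marrow by 5.24, and the snoRNA host genes Snhg5, Snhg1 and Snhg3 by 1.93, 1.80 and 1.48. Lncpint, the imprinted Meg3 and Kcnq1ot1, which is read from the paternal allele at the Kcnq1 locus, and Neat1, the scaffold of paraspeckles, were higher in liver, with -2.95, -2.42, -1.90 and -1.17 (each called by limma). Of 25 tested in marrow and 26 in liver, limma called 0 at 24 or 48 h, and 0 in marrow without the array that carries hepatocyte transcripts. H19 gave 3.36 in liver at 24 h, with a wide spread at that time (-0.27 ± 2.80, SD, n = 4) and an adjusted p of 0.36.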

How the data were processed

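The deposited intensities (gProcessedSignal) are, per the file headers, those of Agilent Feature Extraction 10.10.1.1 for 1 colour, subtracted for background and corrected for spatial trend within an array, not scaled between arrays. The submitters' processing notes also name limma, with no role. The authors' processed table holds log2 values, judged from their range, with each tissue filtered and normalised separately (medians 7.74 in liver and 8.31 in marrow); how it was made is not given in the sources used here, and it served as an alternative within a tissue. Probe positions are on mm9, per the file headers. Genes of other probes were named through a RefSeq table by accession (32989 probes), symbol (10228) or synonym (519).

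Outlier-marked spots and 3671 control spots were left out, spots of a probe were averaged, and each array's 75th percentile was subtracted on the log2 scale. Saturation marks touched 0 lincRNA probes. Probes that every array of some group marked well above background were fitted with limma 3.58.1 (R 4.3.3; lmFit, eBayes, two-sided), with Benjamini-Hochberg adjustment over all of them. The comparison of tissues used the 8 arrays at 0 h, changes used the 12 arrays of a tissue, and the interaction all 24 with detection needed in both tissues. Tables were made with Python 3.11.15, pandas 2.3.3, numpy 2.4.6 and scipy 1.17.1.

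The fit was tested on simulated data. Changes of 0.5, 1, 2 and 4 log2 units, in 50 probes each, were called in 14%, 78%, 94% and 100% for the tissue comparison (32865 probes), in 20%, 70%, 90% and 100% for marrow at 48 h (31553 probes) and in 30%, 74%, 90% and 100% for liver at 48 h (28514 probes). Of the calls made, 6 of 149, 3 of 143 and 10 of 157 were false. The simulated noise was independent and normal, with no effect of slide or row. Only these probes were changed, whereas 79.9% of all probes were called between tissues in the data. The shares for the tissue comparison thus do not give the share of changes found there. Precision rests on the number of arrays, 4 per group. The labels do not say that liver and marrow of a number came from 1 mouse, and the numbers were not taken as pairs.

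Named probes follow a rule: per tissue the 5 single-tissue probes with the smallest p; per direction the 5 largest differences among probes on all 8 arrays; the 3 smallest differences among probes on all 24; up to 5 called changes per direction; and the smallest p-values per time. The members and lists were chosen with earlier results of these data known. The row of the slide, its blocks, the unscaled values, the counts without a marrow array at 24 h that carries liver transcripts and the lncRNA list without Ptprv were alternatives added after the data were seen.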

Additional observations from a re-analysis of the deposited data

Results flagged for a closer look

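Among 88 groups of 4 arrays of named probes, 8 held a value further from the other 3 than Dixon's limit at 95%, where chance gives about 1 in 20. In marrow at 48 h, replicate 3 stood apart for A_30_P01021461 (-1.31, above the others), A_30_P01019540 (-3.99, below) and A_30_P01017723 (-1.10, below). On the same array 151 of the 192 marrow-alone probes were above background, against 175 to 190 on the other marrow arrays at 24 and 48 h. Whether that array moves these 3 changes as a group was not tested. In liver at 0 h the values were -1.15 (A_30_P01033599, replicate 3), -0.73 (A_30_P01018656, replicate 1), -2.74 (A_30_P01032750, replicate 3) and -1.05 (A_30_P01031052, replicate 3), each above the other 3. In marrow at 0 h, A_30_P01029310 read -3.09 on replicate 4, below the others.

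The change differed between the tissues for 4 probes by limma's interaction term. Marrow minus liver, the differences were 1.41 for A_30_P01022296 (below background on all marrow arrays at 0 h), -1.18 for A_30_P01029310 and 0.55 for A_30_P01031714 at 24 h, and 0.77 for A_30_P01028170 at 48 h.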

How the results depend on the processing

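Between tissues, all 428 values of the 20 called named probes kept their direction and stayed past the threshold. Over all 31 called results, 595 of 761 values did so, 166 missed the threshold and 0 reversed. Of 274 values of results that did not pass, 13 passed.

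The count called between tissues (1427) was 2392 without the filter on dim probes and 1355 to 1429 with 1 array left out. With the replicate block it was 1466. In marrow at 24 h (1 called) the count was 0 without the filter, with detection on all arrays, with 1 probe per gene name and in row 1 of the slide. It was 2 with an intensity trend or a row block, 3 in row 2, 4 with median scaling or only the arrays of the 2 times, 5 in the authors' values, 11 with array weights, and 0 to 3 with 1 array left out. In marrow at 48 h (6 called) it was 0 in row 1, 1 without the filter, 2 in row 2, with a slide block or with only the arrays of the 2 times, 3 with normexp, 10 with median scaling or the authors' values, 28 with array weights and 1 to 10 with 1 array left out. Between 48 and 24 h in marrow (0 called) row 2 gave 4. In liver at 48 h (0 called) leaving out 1 array gave 0 to 1.

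For the difference between tissues in the change (4 called), the count was 0 without the filter and in row 1, 1 with normexp, in the authors' values and in row 2, 2 with detection on all arrays or a slide block, 10 with array weights, and 0 to 5 with 1 array left out (0 without marrow replicate 1 or 2, or liver replicate 2, at 0 h). With the replicate block the counts were 1 in marrow at 24 h, 4 at 48 h and 1 for this difference. The probe called in marrow at 24 h was then A_30_P01022296, and A_30_P01027731 had an adjusted p of 0.086. At 0 h same-numbered liver and marrow deviations correlated at 0.13, 0.06, 0.09 and 0.10 over probes, not all above 0.1. Each sample there correlated best with its own number. Same-numbered liver and marrow arrays at 0 h also shared a slide and a row, with numbers 1 and 4 in 1 row and 2 and 3 in the other. Pairing and place on the slide can thus not be told apart. Between times of a tissue, some same numbers also matched best and others did not. Marrow replicate 4 at 0 and 24 h gave 0.16, and liver replicate 3 at 0 and 48 h gave 0.13.

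Detection at 0 h (1532 in liver, 1911 in marrow) was 2544 and 2883 with the software's weaker mark of a positive and significant signal, and 2441 in liver with 1 array enough. Single-tissue counts (230, of which 192 marrow alone and 38 liver alone) were 97, 79 and 18 with the weaker mark, 938, 654 and 284 with 1 array enough, 431, 306 and 125 in row 1, and 445, 376 and 69 in row 2. Liver alone was 65 with 3 arrays enough and 38 to 58 with 1 array left out. Fewer arrays make either end of that definition easier to meet. Causes of the other shifts were not tested. The tissue comparison was not run on the authors' values, since the tissues were normalised separately. Levels of probes seen in 1 tissue are set against signal near background in the other. The normexp setting shrinks such differences by construction, so its smaller values do not measure that limit.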

Other observations

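Few lincRNA probes switched between detection on all 4 arrays of a group and on none of another within a tissue, and these were picked out once their values were known. In marrow, A_30_P01027731 and A_30_P01020702 went from 4 arrays at 0 h to 0 at 24 h (0.045% of lincRNA probes, against 0.013% of the other probes), and A_30_P01026738 and A_30_P01017560 from 0 to 4 (0.045% against 0.033%). At 48 h, A_30_P01026738, A_30_P01022296, A_30_P01029515 and A_30_P01029371 stood at 4 against 0 at 0 h (0.090% against 0.027%), and A_30_P01033403 and A_30_P01032264 at 0 against 4 (0.045% against 0.0077%). Between 24 and 48 h, A_30_P01029721, A_30_P01029515 and A_30_P01027731 went from 0 to 4 (0.067% against 0.0096%). In liver, A_30_P01018576 and A_30_P01026215 went from 0 to 4 arrays at 24 h (0.045% against 0.054%). No test was made between the lists. Without the marrow array at 24 h that carries hepatocyte transcripts, 3 lincRNA probes went from all arrays to none by 24 h (0.067% against 0.023% of the others), 2 from none to all (0.045% against 0.038%) and 4 from none to all between 24 and 48 h (0.090% against 0.021%). Of the changes named here limma called that of A_30_P01027731 at 24 h alone.

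Probes that share sequence gave like differences. Of the lincRNA probes, 32 shared a run of at least 20 bases with a probe to a named gene, and over the 42 tested pairs the tissue differences correlated at r = 0.94. For the 59 lincRNA probes complementary to a gene probe over at least 20 bases, r was 0.34. These values run across probes on the same 8 arrays.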
